A study of Mus musculus with 15 samples.

Results

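The 10 genes described here make, carry and break down L-serine, D-serine and glycine: Phgdh, Psat1, Psph, Srr, Dao, Gldc, Shmt1, Slc6a9, Slc1a4 and Slc7a10. They were listed by gene symbol, with earlier results of these data known, out of 18193 genes measured. All 10 were on the array. Where a gene had several probe sets (groups of probes for one transcript), 1 was chosen by its mean signal over the 15 arrays, the highest being taken. That mean takes no account of the regions.

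L-serine is made in the brain mainly by astroglia, from an intermediate of glycolysis, by the successive enzymes Phgdh, Psat1 and Psph. Serine racemase (Srr) turns L-serine into D-serine, which acts with glutamate at NMDA receptors, and D-amino acid oxidase (Dao) breaks D-serine down. In the brain Dao is best known from glia of the hindbrain and cerebellum. Shmt1 interconverts serine and glycine, Gldc is part of the glycine cleavage system, and carriers in the plasma membrane set how much of each amino acid stays outside the cell.

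The arrays measured RNA of sorted astroglia from male mice aged 6 to 8 weeks of the genotype Gli1-CreER;GFAP-GFP;R26tdTomato. In these mice a tamoxifen-dependent recombinase under control of Gli1, a target gene of Sonic hedgehog signalling, switches on the red reporter tdTomato for good, and GFP is driven by the astroglial GFAP promoter. All mice received 10 mg of tamoxifen on 2 occasions. After 3 weeks, doubly labelled cells were sorted out of the hippocampus, the cerebellum or the subventricular zone (SVZ). Each region had 5 arrays, and each array held a pool from 10 to 12 mice. The labels do not say whether pools of the 3 regions came from the same mice, and the p-values measure the spread between these pools only. Adult neural stem cells reside in SVZ and hippocampus, and stem cell presence and forebrain origin cannot be told apart in comparisons with cerebellum. In such bulk pools, fewer cells of a type and less RNA per cell cannot be told apart.

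Values are given as deposited and were taken to be log2 signals, on which every fold rests. The array medians lay between 1.12 and 1.31, which is low for values of this kind, and no further step by the authors is known. A value near 1 was treated as close to the background, and a fold against it is understated. The cerebellum arrays varied less than the others: over 4816 genes with a mean above 3, the SD had a median of 0.481 there, against 1.00 in SVZ and 1.00 in hippocampus. Spike-in RNA read 10.28 ± 1.60 in cerebellum, below 12.56 ± 0.85 in SVZ and 12.46 ± 0.55 in hippocampus (mean ± SD, n = 5). All 12 astrocyte markers had region means above 2 in each region, but their levels were not alike. Against cerebellum, limma called 3 of the 12 lower and 1 higher for SVZ. For hippocampus the calls were 4 lower and 0 higher. The arrays did not overlap for 6 of the 12 in either comparison. The median difference of this list was -0.52 for SVZ and -0.48 for hippocampus. Of 13 neuron markers, 9 to 11 had a mean under 2, Rbfox3, Slc17a7 and Gad1 among them in each region. Not all were dim: Map2 averaged 6.28, 5.78 and 7.31 in SVZ, hippocampus and cerebellum, and Snap25 was above 2 in each. In each forebrain region limma called 1 of the 13 lower than in cerebellum and 0 higher. At an unadjusted p under 0.05, 2 were lower in SVZ and 3 in hippocampus. The mean level of the neuron list ranged from 1.53 to 2.06 in SVZ, 1.45 to 2.23 in hippocampus and 1.98 to 2.82 in cerebellum. The list of 11 measured microglia markers ranged from 3.19 to 6.00 in SVZ, 2.82 to 5.08 in hippocampus and 1.41 to 2.67 in cerebellum. By limma 4 of them were higher in SVZ than in cerebellum and 2 in hippocampus, and 0 were lower. Tmem119, P2ry12 and Trem2 averaged under 2 in each region. Csf1r averaged 8.88, 7.76 and 3.54 and Laptm5 9.09, 7.90 and 4.18 in SVZ, hippocampus and cerebellum. Of 7 oligodendrocyte precursor markers, Olig1 (4.52) and Olig2 (1.03) were higher in SVZ than in cerebellum, and in hippocampus Olig1 (4.02) was higher and Vcan (-4.09) lower; these genes are named after their values were seen. That list ranged from 2.23 to 3.57 in SVZ, 1.92 to 2.18 in hippocampus and 1.64 to 1.90 in cerebellum. Pdgfra, Gpr17, C1ql1 and Olig2 averaged under 2 in each region, so the Olig2 call lies close to the background. Of 8 oligodendrocyte markers 1, Cnp, was lower in both forebrain regions (-2.02 and -2.97), with Mog and Mag under 2 in each region. Most of that list went the other way: 6 of the 8 differences were above 0 in each comparison with cerebellum. At an unadjusted p under 0.05, 2 were higher and 1 lower in each. Mbp averaged 4.76, 2.55 and 2.39 in SVZ, hippocampus and cerebellum. Of 10 endothelial and pericyte markers 1, Pdgfrb, was higher in SVZ (2.88), with Pecam1, Kdr and Cdh5 under 2. The 10 ependymal and choroid plexus markers had no call by limma (2 at an unadjusted p under 0.05 in SVZ and 1 in hippocampus), and their mean level reached 2.65 in SVZ, 5.59 in hippocampus and 5.51 in cerebellum. Single genes of that list were high or uneven between arrays. Ttr averaged 8.40, 12.82 and 11.89 in the same order. Kcnj13 ranged from 1.33 to 7.66 in hippocampus and 0.66 to 7.68 in cerebellum, whereas Ccdc153, Tmem212 and Dnah5 averaged under 2 in each region. The part of these differences in the results below was not tested. The sort genes Gli1 and Gfap did not pass in any comparison (limma, lowest adjusted p = 0.0843, Gfap in hippocampus against cerebellum), although Gfap passed there with quantile normalization.

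Dao differed most among the 10 genes. It was read at 7.26, 7.54, 6.91, 7.64 and 7.29 on the cerebellum arrays, at 0.61, 0.85, 0.98, 1.37 and 1.21 on the hippocampus arrays, and at 0.97, 3.74, 0.69, 1.43 and 4.13 on the SVZ arrays. Every cerebellum array lay above every array of the other regions, the hippocampus arrays were all near the background, and SVZ 2 and SVZ 5 stood between the other SVZ arrays and cerebellum. The mean was 7.33 ± 0.28 in cerebellum, 1.00 ± 0.30 in hippocampus and 2.19 ± 1.62 in SVZ (SD, n = 5). In the limma fit over all genes the difference from cerebellum was -6.32 ± 0.57 (SE) in hippocampus, an 80.1-fold lower signal (adjusted p = 1.20e-05), and -5.14 ± 0.57 in SVZ, a 35.2-fold lower signal (adjusted p = 0.000105). Both comparisons share the cerebellum arrays. Dao passed under all 24 alternative settings in both, with differences of -6.44 to -5.80 in hippocampus and -5.62 to -4.58 in SVZ. It is the only probe set of the gene, and its identifier carries the suffix for probes that can match more than one transcript.

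**Figure D1:**
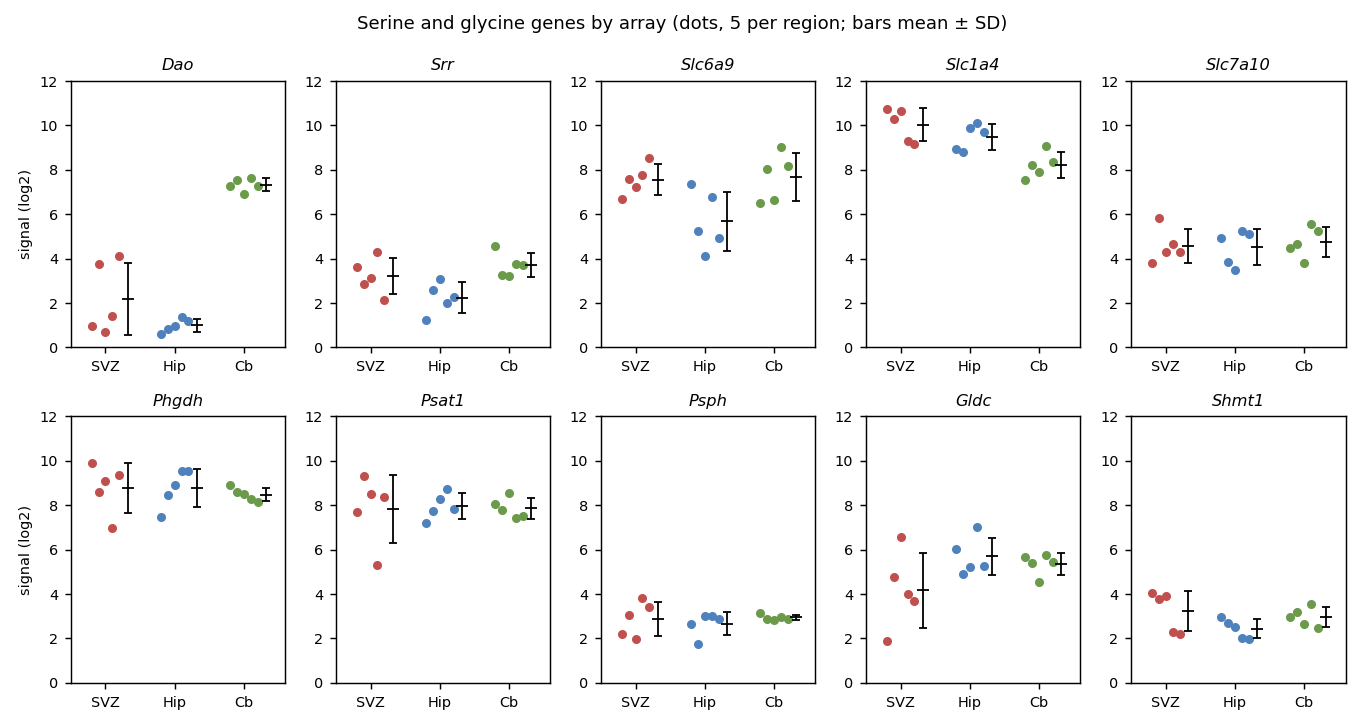
Signal (log2, vertical axis) of the 10 genes on each array of SVZ, hippocampus (Hip) and cerebellum (Cb); dots are arrays, 5 per region, and bars give the mean ± SD. Dao reads 6.91 or more on every cerebellum array and 4.13 or less elsewhere, whereas the regions overlap for Phgdh, Psat1 and Slc7a10.

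The Dao difference between SVZ and hippocampus did not pass (1.19 ± 0.57, interval from -0.04 to 2.41, adjusted p = 0.706), and without SVZ 5, the highest SVZ array, it was 0.70 (adjusted p = 0.785). Like Dao, most Bergmann glia markers and part of the cerebellar neuron markers were lower in the forebrain regions. Over all genes 4.47% passed as lower in SVZ and 3.97% in hippocampus. Both lists were chosen with earlier results of these data known. Of 9 Bergmann glia markers, 7 were lower than in cerebellum in SVZ and 7 in hippocampus, and their mean level ranged from 8.58 to 9.02 in cerebellum, 4.26 to 4.97 in hippocampus and 3.68 to 5.94 in SVZ, with Npy2r under 2 in all regions. Of 10 cerebellar neuron markers, 4 were lower in SVZ and 3 in hippocampus. The list ranged from 2.27 to 3.21 in cerebellum, 1.02 to 1.71 in SVZ and 1.12 to 1.77 in hippocampus. Gabra6, Cbln1, Cbln3, Neurod1 and Slc1a6 averaged under 2 in all regions. Zic1 averaged 8.01 in cerebellum, 2.92 in SVZ and 3.85 in hippocampus. In the same order Pvalb averaged 5.78, 1.67 and 1.41, and Pcp2 3.21, 1.25 and 1.11. Of the 10 cerebellar neuron markers, 2 had a difference above 0 in each forebrain region, Car8 in SVZ among them (2.84 against 2.24 in cerebellum). The part of both lists in the Dao difference was not tested.

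The genes whose pattern over the 15 arrays was most like that of Dao were Npy (Pearson r = 0.98), 0610040J01Rik (r = 0.98) and Gjc3 (r = 0.97). Npy, which encodes neuropeptide Y, read 6.01 ± 0.41 in cerebellum, 1.27 ± 0.42 in hippocampus and 1.92 ± 0.93 in SVZ. Gjc3, a connexin gene, read 5.58 ± 0.44, 0.81 ± 0.20 and 1.57 ± 1.36 in the same order. These correlations describe 15 arrays that fall into 3 regions, and any gene high in cerebellum alone scores well.

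The windows around the annotated starts of Dao are shown because this gene carried the difference between regions. RefSeq sequence of the mouse build GRCm38.p6 holds 3 windows for it, each of 300 bases, from 250 before to 50 after a start. The first lies at chr5:114003485-114003784 and the third at chr5:114004558-114004857, both on the + strand and printed 5′ to 3′, and the second overlaps the first. The array does not tell which start was used.
Dao window 1: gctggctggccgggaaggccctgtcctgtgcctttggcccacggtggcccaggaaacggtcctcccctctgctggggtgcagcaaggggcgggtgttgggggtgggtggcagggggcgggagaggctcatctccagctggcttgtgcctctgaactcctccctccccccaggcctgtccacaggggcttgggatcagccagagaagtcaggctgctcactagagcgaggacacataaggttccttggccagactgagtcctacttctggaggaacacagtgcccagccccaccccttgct
Dao window 3: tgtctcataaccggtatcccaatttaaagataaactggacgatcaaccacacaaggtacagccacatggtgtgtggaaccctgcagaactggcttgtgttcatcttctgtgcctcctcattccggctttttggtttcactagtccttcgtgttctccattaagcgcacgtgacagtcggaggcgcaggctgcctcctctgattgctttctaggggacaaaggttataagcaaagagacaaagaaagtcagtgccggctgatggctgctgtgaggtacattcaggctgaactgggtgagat

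Srr, the enzyme that makes D-serine, was low throughout. It read 3.64, 2.88, 3.14, 4.30 and 2.15 in SVZ, 1.22, 2.60, 3.08, 2.00 and 2.26 on the hippocampus arrays, and 4.55, 3.25, 3.23, 3.78 and 3.71 in cerebellum. All hippocampus arrays lay below all cerebellum arrays, and the SVZ arrays overlapped both. The difference from cerebellum was -1.47 ± 0.41 in hippocampus (adjusted p = 0.0596) and -0.48 ± 0.41 in SVZ (adjusted p = 0.521), so neither passed. The hippocampus value passed under 6 of 24 alternatives, among them leaving out hippocampus 3 (-1.68, adjusted p = 0.0449) and one weight per region (adjusted p = 0.0429). Of the 6 probe sets of Srr, 4 were lower in hippocampus than in cerebellum, with differences of -1.47 to -1.04, and the other 2 were higher, by 0.78 and 0.88. These 2 averaged 0.90 and 1.32 in cerebellum, close to the background, and each had 1 high hippocampus array. The first read 4.37 on hippocampus 4 and 0.60 to 1.31 on the others. The second read 5.69 on hippocampus 1 and 0.96 to 1.97 on the others.

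Of the 10 genes, 1 was higher (Slc1a4) and 1 lower (Dao) in SVZ than in cerebellum, where 5.51% of all 18193 genes passed, 1.03% higher and 4.47% lower (188 and 814 genes). In hippocampus against cerebellum 1 was lower (Dao) and 0 higher by limma, where 4.78% of all genes passed, 3.97% lower and 0.808% higher, with 3 lower and 1 higher at an unadjusted p under 0.05. Quantile normalization moved the split of all calls to 213 higher and 396 lower in SVZ, and to 155 and 337 in hippocampus from 147 and 722. In SVZ against hippocampus 0 passed by limma, where 0.022% of all genes passed, 0.0165% higher and 0.0055% lower, and 3 had an unadjusted p under 0.05: Slc6a9, Srr and Gldc. The arrays did not overlap for 2 of the 10 in SVZ against cerebellum (8.62% of all genes), for 2 in hippocampus against cerebellum (7.98%) and for none of them in SVZ against hippocampus (0.813%). The median difference of the 10 was -0.09 in SVZ and -0.26 in hippocampus against cerebellum, and 0.38 in SVZ against hippocampus, where the medians over all genes were 0.07, 0.07 and -0.004.

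**Figure D2:**
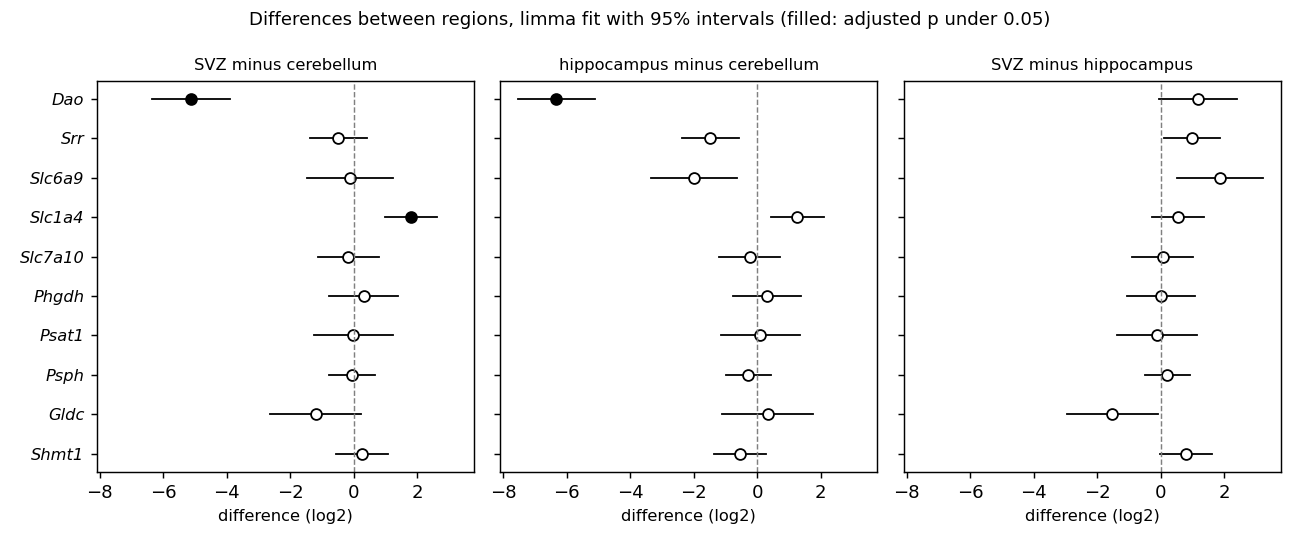
Differences between regions (log2, horizontal axis) with 95% intervals of the limma fit for the 10 genes in the 3 comparisons; filled points have an adjusted p under 0.05. Dao is filled and far to the left in both comparisons with cerebellum, Slc1a4 is filled in SVZ only, and no point is filled between SVZ and hippocampus.

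Slc1a4 encodes the neutral amino acid exchanger ASCT1, which carries L-serine and D-serine. It read 10.74, 10.29, 10.64, 9.30 and 9.16 in SVZ, 8.95, 8.81, 9.87, 10.10 and 9.72 on the hippocampus arrays, and 7.53, 8.24, 7.92, 9.06 and 8.36 in cerebellum. The lowest SVZ array stood just above the highest cerebellum array, and the hippocampus arrays overlapped both groups. SVZ was higher than cerebellum by 1.80 ± 0.38, or 3.49-fold (adjusted p = 0.0135). The difference was 1.27 ± 0.38 in hippocampus (adjusted p = 0.0797) and 0.54 ± 0.38 between SVZ and hippocampus (interval from -0.29 to 1.36, adjusted p = 0.777), so the data do not show that the 2 forebrain regions differ in it. Leaving out hippocampus 2 brought the hippocampus difference to 1.44 and past the threshold (adjusted p = 0.0494).

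The probe sets of Slc1a4 gave unlike sizes. Besides the one used, a second differed from cerebellum by 1.66 ± 0.72 in SVZ and 2.12 ± 0.72 in hippocampus, and the third by 0.57 ± 0.94 and 2.38 ± 0.94. All 6 differences were above 0, but with the mean of the probe sets the call moved from SVZ (1.34, adjusted p = 0.120) to hippocampus (1.92, adjusted p = 0.0338). With the spike-in level as a covariate the SVZ difference was 2.29 (adjusted p = 0.0581).

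**Figure D3:**
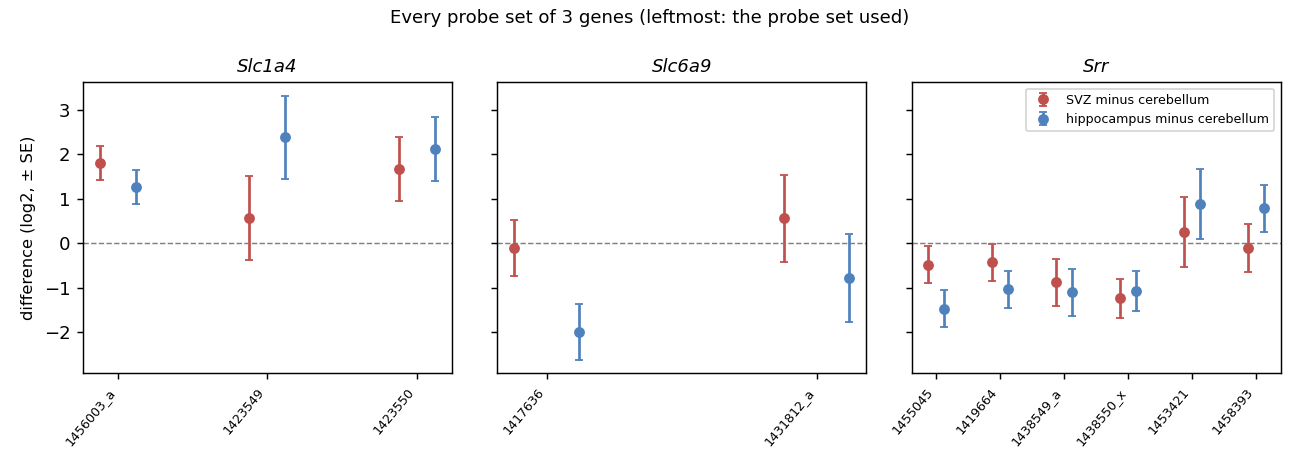
Difference from cerebellum (log2, vertical axis, ± SE) of every probe set of Slc1a4, Slc6a9 and Srr, in SVZ (red) and hippocampus (blue); the leftmost probe set of each panel is the one used. All probe sets of Slc1a4 lie above 0, those of Slc6a9 lie below 0 in hippocampus, and those of Srr split in sign. The Srr probe sets above 0 in hippocampus are close to the background apart from 1 high hippocampus array each.

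The genes most like Slc1a4 over the 15 arrays were Nsmf (r = 0.89), the neuronal kinase gene Dclk1 (r = 0.88) and Acsl6, which encodes an enzyme that activates fatty acids (r = 0.87). Acsl6 averaged 6.57 ± 0.33 in cerebellum, 7.93 ± 0.70 in hippocampus and 8.61 ± 0.45 in SVZ. Dclk1 averaged 5.87 ± 0.15, 7.04 ± 0.30 and 7.12 ± 0.41 in that order.

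ATF4, a transcription factor of amino acid shortage, is known to act on genes of serine synthesis and uptake through the composite element TGATGNAA. The element was searched on both strands in the 15 windows of the 10 genes, and 1 window held it, that of Slc1a4, against 3.97% of all 32851 windows of 300 bases. The window lies at chr11:20332664-20332963 on the - strand of GRCm38.p6 and is printed 5′ to 3′ in the direction of the gene. Capitals mark the element, which is on the opposite strand. As printed, its 8 bases run from 4 bases before the start across the start. A match describes these letters only.
Slc1a4 window: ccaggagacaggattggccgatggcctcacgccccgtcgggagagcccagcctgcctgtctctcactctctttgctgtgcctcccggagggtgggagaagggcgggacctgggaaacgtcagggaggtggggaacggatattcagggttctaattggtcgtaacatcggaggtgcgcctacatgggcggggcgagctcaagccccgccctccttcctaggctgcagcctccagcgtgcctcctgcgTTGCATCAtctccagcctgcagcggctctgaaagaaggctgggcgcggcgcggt

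Slc6a9 encodes GlyT1, the glycine transporter of glia. It read 6.69, 7.59, 7.22, 7.78 and 8.53 in SVZ, 7.35, 5.23, 4.11, 6.76 and 4.94 on the hippocampus arrays, and 6.50, 8.04, 6.65, 9.03 and 8.16 in cerebellum. Hippocampus 2, 3 and 5 lay below all SVZ and cerebellum arrays, and hippocampus 1 and 4 lay among them. The difference from cerebellum was -2.00 ± 0.63 in hippocampus (adjusted p = 0.0915) and -0.11 ± 0.63 in SVZ (adjusted p = 0.933). SVZ against hippocampus gave 1.88 ± 0.63, with an interval from 0.53 to 3.24 and an unadjusted p of 0.00981, but did not pass over all genes (adjusted p = 0.534). Without hippocampus 1 the hippocampus value was -2.42 and passed (adjusted p = 0.0421). Its second probe set gave -0.78 ± 0.98 in hippocampus and 0.56 ± 0.98 in SVZ, and its highest array was hippocampus 3 at 7.55, which was the lowest array in the probe set used.

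Slc7a10 encodes Asc-1, an exchanger that carries D-serine and glycine. Its regions overlapped, with 3.82 to 5.82 in SVZ, 3.48 to 5.25 in hippocampus and 3.82 to 5.58 in cerebellum. The means were 4.58 ± 0.76, 4.52 ± 0.80 and 4.75 ± 0.69. The difference from cerebellum was -0.17 ± 0.45 in SVZ, with an interval from -1.14 to 0.79 (adjusted p = 0.845), and -0.24 ± 0.45 in hippocampus, with an interval from -1.20 to 0.72 (adjusted p = 0.776). Changes of up to about that interval could go unseen, and the sign turned with quantile normalization.

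The genes of L-serine synthesis did not pass in any comparison. Phgdh, the first and committed enzyme, read 9.92, 8.58, 9.11, 6.97 and 9.37 in SVZ, 7.45, 8.45, 8.91, 9.53 and 9.55 on the hippocampus arrays, and 8.91, 8.60, 8.49, 8.26 and 8.15 in cerebellum. The cerebellum arrays lay inside the range of both other regions. The differences were 0.31 ± 0.50 in SVZ (interval from -0.76 to 1.38, adjusted p = 0.741) and 0.30 ± 0.50 in hippocampus (interval from -0.78 to 1.37, adjusted p = 0.749). All 4 probe sets of Phgdh carry the suffix for probes that can match other genes, so signal from near-identical sequence cannot be told apart. Each of the 4 differed by 0.06 to 0.63 above cerebellum in both regions, and none of these differences passed.

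Psat1, the aminotransferase of the second step, read 7.69, 9.32, 8.51, 5.31 and 8.36 in SVZ, 7.18, 7.75, 8.27, 8.73 and 7.83 on the hippocampus arrays, and 8.04, 7.77, 8.56, 7.42 and 7.51 in cerebellum. SVZ 4 was the lowest array for both Phgdh and Psat1, and the other arrays overlapped between regions. The Psat1 difference from cerebellum was -0.02 ± 0.58 in SVZ (interval from -1.27 to 1.22, adjusted p = 0.987) and 0.09 ± 0.58 in hippocampus (interval from -1.15 to 1.34, adjusted p = 0.936), and without SVZ 4 the SVZ value was 0.61 (adjusted p = 0.380). A second probe set gave 0.45 ± 0.35 and 0.51 ± 0.35, and there SVZ 4 read 7.93, the second highest of its region.

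Psph, the phosphatase that completes the synthesis, was dim, with 1.96 to 3.80 in SVZ, 1.75 to 3.03 in hippocampus and 2.84 to 3.16 in cerebellum. Its differences from cerebellum were -0.06 ± 0.33 in SVZ (interval from -0.78 to 0.65, adjusted p = 0.928) and -0.28 ± 0.33 in hippocampus (interval from -0.998 to 0.44, adjusted p = 0.643). The cerebellum arrays spanned a narrower range than those of either other region.

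Gldc, the glycine decarboxylase of the cleavage system, read 1.87, 4.75, 6.55, 3.99 and 3.67 in SVZ, 6.03, 4.90, 5.23, 7.02 and 5.28 on the hippocampus arrays, and 5.65, 5.41, 4.53, 5.78 and 5.46 in cerebellum. In SVZ, 3 arrays lay below all arrays of the other regions and SVZ 3 lay above all cerebellum arrays. The difference of SVZ was -1.20 ± 0.67 from cerebellum (adjusted p = 0.325) and -1.53 ± 0.67 from hippocampus, with an interval from -2.96 to -0.09 (adjusted p = 0.698). Hippocampus differed from cerebellum by 0.33 ± 0.67 (adjusted p = 0.795). Without SVZ 1, the lowest array, the SVZ difference was -0.63 from cerebellum.

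Shmt1, the cytosolic serine hydroxymethyltransferase, read 4.03, 3.77, 3.90, 2.31 and 2.19 in SVZ, 2.95, 2.70, 2.53, 2.02 and 1.97 on the hippocampus arrays, and 2.96, 3.19, 2.64, 3.57 and 2.49 in cerebellum. SVZ 1, 2 and 3 lay above all other arrays, and SVZ 4 and 5 lay below all cerebellum arrays. The difference from cerebellum was 0.27 ± 0.38 in SVZ and -0.54 ± 0.38 in hippocampus (adjusted p = 0.703 and 0.432), and SVZ against hippocampus gave 0.81 ± 0.38 (adjusted p = 0.705). The 3 other probe sets of Shmt1 read lower and gave differences of -0.25 to 0.50 in SVZ and -0.59 to 0.44 in hippocampus.

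Other genes of the pathway were taken from fixed lists, chosen with earlier results of these data known, and 15 differences of 9 genes passed. The lists held 12 enzymes, 24 carriers, 11 receptor subunits, 13 folate genes and 9 serine consumers that were measured. Over all genes 1.03% passed as higher and 4.47% as lower in SVZ than in cerebellum. For hippocampus these shares were 0.808% and 3.97%. With the spike-in level as a covariate 13 of the 15 did not pass (adjusted p from 0.0749 to 0.428), Gatm and Grin3a in hippocampus being the exceptions. The spike-in level was itself lower in cerebellum, so this covariate overlaps with region and widens the SE. Ddo in SVZ stood at -2.11 ± 0.64 with it and -2.12 ± 0.45 without it, whereas Slc38a1 in SVZ moved from -5.90 to -4.40. Without cerebellum 4 and 5 together 9 did not pass, those of Ddo, Slc7a11 and Grin2c in both regions and of Pipox, Sfxn1 and Grin3a in SVZ. Quantile normalization left 7 short of the threshold, those of Ddo in both regions and of Pipox, Sfxn1, Slc7a11, Grin2c and Grin3a in SVZ. Of 12 measured enzymes of serine, glycine and D-amino acids (17 listed), 2 were lower and 1 higher in SVZ than in cerebellum, and 2 were lower and 0 higher in hippocampus by limma, where 4 were lower and 0 higher at an unadjusted p under 0.05. Ddo, which breaks down D-aspartate and is related to Dao, read 5.41, 5.76, 3.84, 5.69 and 5.02 in cerebellum, 3.54, 2.47, 2.58, 4.03 and 2.52 in SVZ, and 3.18, 3.77, 3.59, 2.03 and 3.77 in hippocampus. Of the cerebellum arrays, number 3 overlapped the SVZ arrays and the rest lay above all of them. The difference was -2.12 ± 0.45 in SVZ and -1.88 ± 0.45 in hippocampus (adjusted p = 0.0127 and 0.0266). The hippocampus call ended without hippocampus 1 or 4 or cerebellum 1, 2, 4 or 5 (highest adjusted p = 0.0741). With quantile normalization neither Ddo call held (adjusted p = 0.0810 in SVZ and 0.205 in hippocampus), and averaging its probe sets gave differences of -0.84 and -0.98.

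Gatm, which uses glycine in the first step of creatine synthesis, was lower in both forebrain regions, with differences of -2.31 ± 0.42 in SVZ and -2.76 ± 0.42 in hippocampus (adjusted p = 0.00475 and 0.00122). Its cerebellum arrays read 4.79 to 5.74, above 1.95 to 3.33 in SVZ and 1.01 to 3.50 in hippocampus. Pipox, a peroxisomal oxidase of sarcosine, was higher in SVZ by 1.72 ± 0.47 (adjusted p = 0.0468), from 2.38 to 4.73 against 1.51 to 2.37 in cerebellum. That call ended with any array of the 2 regions left out except SVZ 3, with adjusted p values of up to 0.104, and under quantile normalization (0.0688), a trended robust spread (0.0540) or median centring (0.0518).

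Of 24 measured carriers of serine, glycine and related amino acids, 2 were higher and 2 lower in SVZ, and 1 was higher and 1 lower in hippocampus. Slc38a1, a glutamine carrier that also takes serine, was lower in both forebrain regions, with differences of -5.90 ± 0.85 in SVZ and -5.81 ± 0.85 in hippocampus (adjusted p = 0.000966 and 0.00101), from 8.70 to 10.07 in cerebellum to 0.78 to 5.95 in SVZ and 1.79 to 5.29 in hippocampus. With the spike-in covariate Slc38a1 stood at -4.40 and -4.37 (adjusted p = 0.0852 and 0.0749). Sfxn1, which carries serine into mitochondria, was lower in SVZ, with a difference of -2.11 ± 0.47 (adjusted p = 0.0175), with all SVZ arrays, at 2.89 to 4.59, below the lowest cerebellum array at 5.15. Its mean was also lower in hippocampus (4.04 ± 1.07, against 5.62 ± 0.33 in cerebellum, SD), without a call. The Sfxn1 call ended without cerebellum 4 and 5 (adjusted p = 0.0848), under quantile normalization (0.0721) and under the replicate block (0.0508). Slc38a3, another glutamine carrier, was higher in SVZ by 1.43 ± 0.32 (adjusted p = 0.0182), from 4.02 to 5.45 against 2.42 to 3.99. In hippocampus it averaged 4.08 ± 0.39, also above 3.41 ± 0.59 in cerebellum (SD), without a call. Averaging its probe sets gave 0.76 for Slc38a3, and its call ended with a trended robust spread (adjusted p = 0.0767) and without SVZ 1 and hippocampus 3 (0.0520). Slc7a11, the cystine and glutamate exchanger, was higher in both forebrain regions, by 2.23 ± 0.59 in SVZ and by 2.30 ± 0.59 in hippocampus (adjusted p = 0.0423 and 0.0405), against 0.88 to 1.41 in cerebellum, near the background. The Slc7a11 calls held in 2 of 10 (without SVZ 1 or SVZ 5) and 1 of 10 (without hippocampus 2) of the fits with 1 array left out, with adjusted p values of up to 0.102 and 0.0989 in the others.

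**Figure D4:**
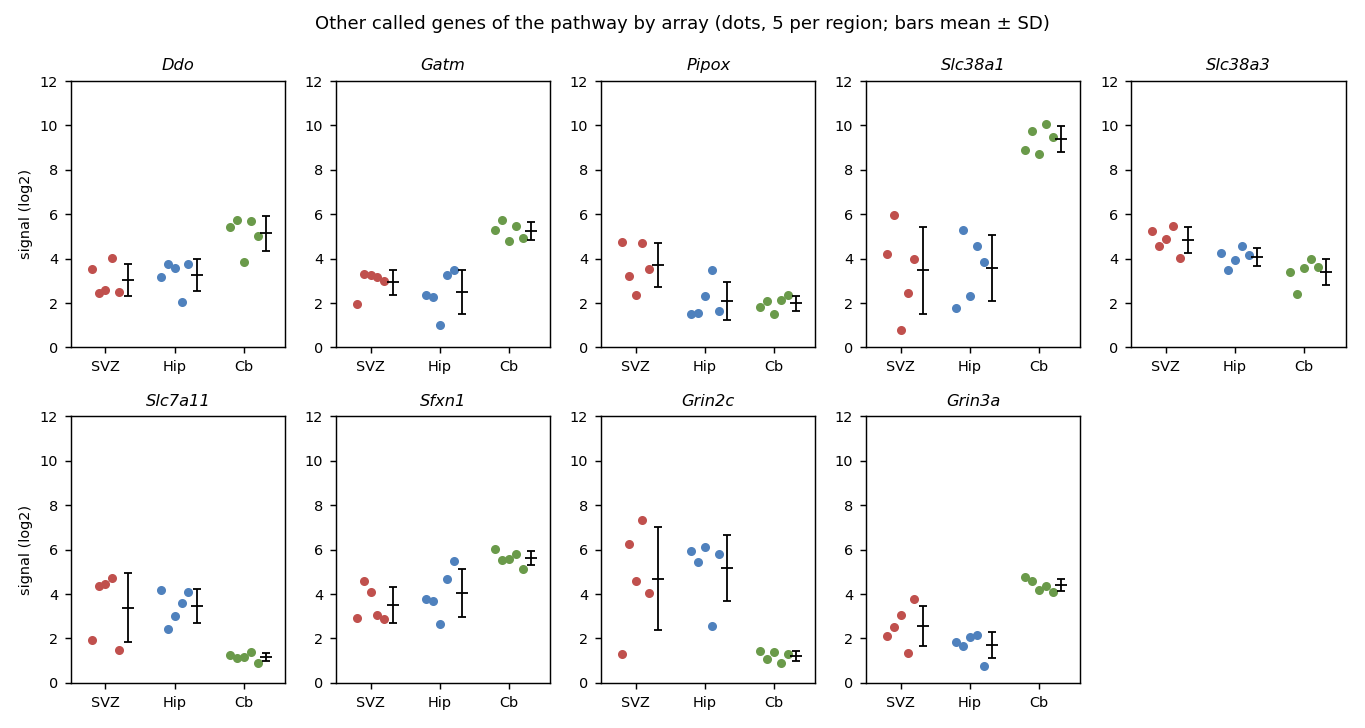
Signal (log2, vertical axis) of the other pathway genes that passed in a comparison with cerebellum, on each array of SVZ, hippocampus (Hip) and cerebellum (Cb); dots are arrays and bars give the mean ± SD of 5. Slc38a1 reads 8.70 or more in cerebellum and 5.95 or less elsewhere, and Grin2c is near the background in cerebellum.

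Of 11 measured subunits of NMDA and glycine receptors, on which D-serine and glycine act, 1 was higher and 1 lower in each forebrain region. Grin3a, a glycine-binding NMDA receptor subunit, was lower in both forebrain regions, with differences of -1.83 ± 0.39 in SVZ and -2.69 ± 0.39 in hippocampus (adjusted p = 0.0129 and 0.000833). It read 4.08 to 4.76 in cerebellum, 1.36 to 3.76 in SVZ and 0.76 to 2.17 in hippocampus, so that every cerebellum array lay above all others. Averaging its probe sets gave differences of -1.19 and -1.51, and the SVZ call ended without cerebellum 4 and 5 (adjusted p = 0.0640) and under quantile normalization (0.0823). Grin2c was higher in both forebrain regions, by 3.48 ± 0.93 in SVZ and by 3.94 ± 0.93 in hippocampus (adjusted p = 0.0437 and 0.0261). It read 0.90 to 1.42 on the cerebellum arrays, 2.57 to 6.10 in hippocampus, and 1.30, 6.25, 4.58, 7.32 and 4.04 in SVZ, where SVZ 1 fell within the cerebellum range. Its SVZ call held only without SVZ 1 among the fits with 1 array left out, with adjusted p values of up to 0.0930 in the rest, and its hippocampus call ended without hippocampus 1, 3 or 5 or cerebellum 2, 4 or 5 (up to 0.0655).

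None of 13 measured genes of folate one-carbon metabolism and none of 9 genes that consume serine passed in a comparison by limma. At an unadjusted p under 0.05 the folate genes numbered 0 in SVZ and 1 in hippocampus against cerebellum and 1 in SVZ against hippocampus, and the serine consumers 2, 3 and 0. The medians of the folate genes were 0.04 and 0.08 in SVZ and hippocampus against cerebellum, and those of the consumers 0.23 and 0.13, beside 0.07 over all genes in both. In SVZ against hippocampus 0 genes of all 5 lists passed by limma, and at an unadjusted p under 0.05 there were 1 enzyme, 3 carriers and 1 receptor subunit besides the folate gene.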

How the data were processed

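The values of 15 Affymetrix mouse arrays were used as deposited: RMA normalization by the authors is named in the submitters' processing notes, and the values were taken to be on a log2 scale, because array maxima lay between 14.97 and 15.08. The log base, RMA version and any further step were not given in the sources used here. Per the labels' protocols, RNA of sorted pools was amplified with the WT-Ovation Pico system. Samples were grouped by title. Of 45101 probe sets 34958 carried 1 gene symbol, 932 several and 9211 none listed, and 34754 symbols were updated through Entrez identifiers. limma 3.58.1 in R 4.3.3 fitted region over all 15 arrays and 18193 genes, and p-values were adjusted over all genes by the Benjamini-Hochberg method, with a call at an adjusted p under 0.05. The script was tested on simulated data. The series design text names more than 4-fold at p under 0.01, used as an alternative. The number of arrays limits the precision. No detection calls were used.

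The 10 genes and all lists were chosen with earlier results of these data known. Besides the 10, the text names the called genes of the fixed pathway lists (the 2 largest differences each way), the 3 genes most correlated with each called gene of the 10, and Gli1 and Gfap. Marker genes outside that rule are named where their region means were under 2, where they were the few called genes of a list, or as examples beside these. They were picked after their values were seen. Alternative settings were quantile normalization, a spike-in covariate, a replicate block, array weights, centring on the median, a trended robust spread, a fit on only the 2 regions compared, the mean over probe sets or each probe set separately, genes above 3 on fewer than 5 arrays removed, the design's thresholds, and each array removed once. Those added after seeing the data removed SVZ 1 with hippocampus 3, or cerebellum 4 with 5, or gave one weight per region. Promoter windows came from RefSeq (GRCm38.p6), with all 10 genes matched. Figures were drawn with matplotlib 3.10.9.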

Additional observations from a re-analysis of the deposited data

Results flagged for a closer look

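Psph read 1.75 on hippocampus 2, where the other hippocampus arrays lay between 2.67 and 3.03. The gap to the nearest array was 0.719 of the range of the region, above Dixon's 95% critical value for 5 samples. This was 1 of 30 groups of arrays tested, and chance flags about 1 in 20 such groups.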

How the results depend on the processing

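Of 30 differences of the 10 genes, 13 kept direction and call under all 24 alternatives each, Dao against cerebellum among them, 13 changed sign under some alternative, none of which had passed, and 4 changed call. The number of the 10 genes higher in SVZ than in cerebellum fell from 1 to 0 with the mean of probe sets, the spike-in covariate and the design's thresholds. In hippocampus the number higher rose from 0 to 1 with the mean of probe sets, and the number lower from 1 to 2 with median centring, only the 2 regions compared and one weight per region, and to 3 with dim genes left out and with array weights; with 1 array left out these counts were 0 to 1 and 1 to 2. With dim genes left out fewer genes were tested; otherwise the cause was not tested.

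The labels do not tie same-numbered arrays, and 1, 2 and 1 of 5 correlations of their deviations were above 0.1 in the 3 comparisons, so the numbers were not taken as pairs. In SVZ and cerebellum, however, all 5 were above 0 (0.027 to 0.111) and 5 of 5 arrays correlated best with their own number, against 3 and 2 of 5 in the others, a hint from the data and not the design. With the replicate block Dao stood at -5.14 and -6.32 (adjusted p = 0.000588 and 0.000141) and Slc1a4 in SVZ at 1.80 (adjusted p = 0.0391), and no call among the 10 genes changed, whereas Slc7a11, Grin2c, Sfxn1 and, in hippocampus, Ddo missed the threshold.

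In SVZ against cerebellum the sign turned with quantile normalization for Psat1 (0.33), Psph (0.30), Slc6a9 (0.26) and Slc7a10 (0.33), with the mean of probe sets for Psat1 (0.21) and Slc6a9 (0.22), with array weights for Psat1 (0.38), and with the spike-in covariate for Psat1 (0.15), Slc6a9 (0.60) and Slc7a10 (0.58). It also turned without SVZ 1 and hippocampus 3 for Psat1 (0.015), Psph (0.10), Slc6a9 (0.10) and Slc7a10 (0.016), and without cerebellum 4 and 5 for Slc6a9 (0.50) and Slc7a10 (0.27). In hippocampus against cerebellum it turned for Psph (0.26) and Slc7a10 (0.33) with quantile normalization, Psat1 with median centring (-0.020) and without cerebellum 4 and 5 (-0.17), and Slc7a10 with the spike-in covariate (0.48), without SVZ 1 and hippocampus 3 (0.021) and without cerebellum 4 and 5 (0.20). In SVZ against hippocampus it turned for Phgdh with quantile normalization (-0.012), array weights (-0.064), the spike-in covariate (-0.0015) and without SVZ 1 and hippocampus 3 (-0.24), for Psat1 with array weights (0.24) and without these 2 arrays (0.0025), for Slc1a4 with the mean of probe sets (-0.58), and for Slc7a10 without these 2 arrays (-0.0050).

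With 1 array left out, values in SVZ against cerebellum ranged from -0.39 to 0.61 for Psat1, -0.29 to 0.17 for Psph, -0.41 to 0.22 for Slc6a9 and -0.48 to 0.032 for Slc7a10. In hippocampus against cerebellum they ranged from -0.006 to 0.52 for Gldc, -0.10 to 0.29 for Psat1 and -0.47 to 0.02 for Slc7a10, and in SVZ against hippocampus from -0.32 to 0.47 for Phgdh, -0.48 to 0.52 for Psat1, -0.014 to 0.45 for Psph and -0.25 to 0.25 for Slc7a10.

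With quantile normalization the enzymes called in SVZ were 0 higher and 1 lower (1 and 2 before), the carriers 1 and 1 (2 and 2) and the receptor subunits 0 and 0 (1 and 1); in hippocampus the enzymes were 0 and 1 (0 and 2) and the receptor subunits 2 and 1 (1 and 1). Of 15 differences of the other genes named, 2 kept their call under all alternatives (Gatm and Grin3a in hippocampus), and none changed sign. Over all genes, calls higher and lower were 40 and 144 in SVZ and 34 and 178 in hippocampus with the spike-in covariate, 409 and 1152, and 244 and 981, with array weights, 340 and 1078, and 225 and 889, with one weight per region, 120 and 464, and 77 and 445, with the design's thresholds, and 71 and 297, and 61 and 297, without cerebellum 4 and 5. Median centring moved the median difference of all genes in SVZ from 0.07 to -0.04.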

Other observations

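Dao was higher on SVZ 2 and SVZ 5 (3.74 and 4.13) than on SVZ 1, 3 and 4 (0.97, 0.69 and 1.43), and both lists of cerebellar markers are given here for the same arrays. The mean level of the 9 Bergmann glia markers on SVZ 1 to 5 was 5.43, 5.94, 4.74, 3.68 and 4.35, highest on SVZ 2 and second lowest on SVZ 5. The mean level of the 10 cerebellar neuron markers was 1.55, 1.51, 1.02, 1.52 and 1.71, highest on SVZ 5 and second lowest on SVZ 2. Neither list mean had both arrays on top, but single genes of the lists differed. Zic1 (1.23, 5.40, 0.47, 0.99 and 6.53) and Gdf10 (3.51, 4.31, 2.64, 1.36 and 5.25) were highest on SVZ 2 and SVZ 5. Hopx (7.01, 6.24, 4.98, 3.53 and 3.12) and Gria1 (7.68, 6.37, 6.26, 0.92 and 5.77) were not. These genes were picked after their values were seen, and their part in the Dao values was not tested.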
